A study of Mus musculus with 4 samples.

Results

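The mouse germline genes Sohlh1, Dazl, Piwil2, Stag3 and Syce1 were picked from the 49997 genes of a RefSeq table because a Tet1 ChIP-seq peak had its summit inside each of them or within 3000 bp. The 5 genes hold 6 of the 620 deposited peaks, 1 of them in the Tet1 knockout (KO) list and 5 in the wild-type (WT) list. The peaks themselves chose the genes, so their presence and strength are described and not tested.

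Chromatin immunoprecipitation and sequencing (ChIP-seq) was done with a Tet1 antibody in spermatogonia, the testis germ cells that divide by mitosis before meiosis begins, sorted by flow cytometry (20000 cells per the labels). The groups were Tet1 knock out and wild type mice, both of strain 129 and 3 months old, with 1 Tet1 ChIP and 1 input library for each. The input is chromatin sequenced as it is, with no antibody step. The labels give no knockout allele, number of animals or sort markers. After duplicate removal the KO ChIP held 2235818 tags and its input 3739856, and the WT ChIP held 3081692 and its input 3546238. A peak list holds no expression values, so the labelled cell type was not checked against markers. The Tet1 gene had 0 KO and 0 WT summits inside it or within 3000 bp, which says nothing of the deleted part or of the protein left. With 1 library per group, no value here has a replicate check, and intervals cover counting error only.

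Tet1 is a dioxygenase that oxidises 5-methylcytosine, and its CXXC domain binds unmethylated CpG-rich DNA. Many germline genes have promoters that are silenced by DNA methylation in somatic cells and lose that methylation in primordial germ cells. In mouse primordial germ cells, Tet1 is known to be needed for full activation of a set of meiotic genes. The 5 genes act at different steps of germ cell life. Sohlh1 is a transcription factor, Dazl and Piwil2 act on RNA, and Stag3 and Syce1 build the chromosome axis and the synaptonemal complex of meiosis.

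Of the 5 genes, 1 had a KO peak and 4 a WT peak, and none had both. Among all 49997 annotated genes, 0.432% had a KO peak and 0.858% a WT peak by the same rule, from which nothing is read because that rule chose the 5 genes. The peaks at these genes were low. The deposited pileup counts the ChIP tags that, once extended to fragment length, cover the summit. It was 6 at the single KO peak and 5 or 6 at the 5 WT peaks. The deposited fold enrichment, the pileup plus 1 over the scaled input background plus 1, was 5.15 at the KO peak and 4.32 to 5.13 at the WT peaks. Pileups, folds and q-values of peaks are the authors' throughout, and coordinates are those of mm10.

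Sohlh1 encodes a basic helix-loop-helix factor needed for spermatogonia to differentiate (chromosome 2, gene 25842995 to 25847248, minus strand). The KO list had no peak at Sohlh1. The WT list had 1, at 25845637 to 25845935, with a pileup of 5 tags (95% exact Poisson interval 1.62 to 11.7), a fold of 4.47 and a q of 0.0387. Its summit lay inside the gene, 1495 bp downstream of the RefSeq start. The nearest neighbours were Kcnt1 on the higher-coordinate side, 18.0 kb from the summit, and Lcn9 on the other side, 20.2 kb away. Sohlh1 is thus the sole annotated gene within 3000 bp of this summit.

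Dazl encodes an RNA-binding protein that controls translation in germ cells (chromosome 17, gene 50279393 to 50293620, minus strand). It was the sole gene of the 5 with more than 1 peak. The KO list had none there, and the WT list had 2, with summits 3410 bp apart. The WT peak nearer the start, at 50286863 to 50287283, had 6 tags (2.20 to 13.1), a fold of 5.13 and a q of 0.00359, the lowest q of the 5 WT peaks. The other, at 50283562 to 50283860, had 5 tags (1.62 to 11.7), a fold of 4.32 and a q of 0.0497, the highest. The summits lay 6563 and 9973 bp downstream of the start, both well inside the gene. Among 21900 protein-coding genes, 16 (0.0731%) had 2 or more WT summits inside or within 3000 bp, and 9 (0.0411%) had 2 or more KO summits. The gene lies apart from others: the nearest annotated feature to either summit was the pseudogene Gm4669, 22.4 kb from the summit of lower coordinate, and the nearest protein-coding gene was Rftn1, at least 93.2 kb away.

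Piwil2 encodes the PIWI protein MILI, which binds piRNAs and acts in transposon silencing in the male germ line (chromosome 14, gene 70372477 to 70436898). It is the longest of the 5 genes, at 64422 bp. The KO list had no peak at Piwil2. The WT list had 1, at 70405298 to 70405596, with 6 tags (2.20 to 13.1), a fold of 4.77 and a q of 0.0166. Its summit lay close to the middle of the gene, at 51.2% of the span from the lower-coordinate end. The nearest annotated feature was the pseudogene Gm22725 inside Piwil2, 16.7 kb away, and the nearest other protein-coding gene was Polr3d, 33.3 kb away.

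Stag3 encodes a cohesin subunit specific to meiosis (chromosome 5, gene span 138272514 to 138312397, plus strand). The KO list had no peak at Stag3. The WT list had 1, at 138282636 to 138283079, with 6 tags (2.20 to 13.1), a fold of 4.69 and a q of 0.0232. The summit lay 2362 bp downstream of the start in the RefSeq promoter table, which is 7995 bp inside the span of the gene table. Gpc2, a glypican gene, lies within that span, and its higher-coordinate end is 483 bp before the Stag3 start. The summit was 2845 bp from Gpc2, so the same peak also falls within 3000 bp of that gene.

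Syce1 encodes a central element protein of the synaptonemal complex, the structure that joins homologous chromosomes in meiosis (chromosome 7, gene 140777229 to 140787854, minus strand). It was the sole gene of the 5 with a peak in the KO list, and the WT list had none there. The KO peak, at 140787652 to 140787951, had 6 tags (2.20 to 13.1), a fold of 5.15 and a q of 0.00326. Its summit lay 57 bp upstream of the start, and so outside the gene. No WT peak at Sohlh1, Dazl or Stag3 touched a start: the nearest WT summit to one was that of Sohlh1. Piwil2 has no start in the RefSeq promoter table, and its summit lay at least 31428 bp from either end of its span. The pseudogene Gm29799, inside Syce1, was 2910 bp from the summit, and the nearest other protein-coding genes were Cyp2e1 (12.9 kb) and Zfp941 (19.5 kb).

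Among the peaks at genes with a start in the RefSeq promoter table, that of Syce1 is the one that covers promoter sequence. The 250 bases before the Syce1 start are therefore shown, from RefSeq (GRCm38.p6, which has mm10 coordinates), chr7:140787855-140788104, minus strand, 5′ to 3′. Capitals mark the 97 bases inside the KO peak. The summit is base 194 of the 250, and 9 of the 13 CpG dinucleotides shown lie within the capitals.
Syce1: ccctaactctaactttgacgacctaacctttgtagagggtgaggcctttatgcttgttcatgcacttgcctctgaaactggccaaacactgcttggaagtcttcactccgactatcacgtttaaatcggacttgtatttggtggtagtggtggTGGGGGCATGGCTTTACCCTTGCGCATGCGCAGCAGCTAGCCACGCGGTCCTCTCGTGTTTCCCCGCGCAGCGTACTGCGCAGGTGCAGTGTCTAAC

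**Figure D1:**
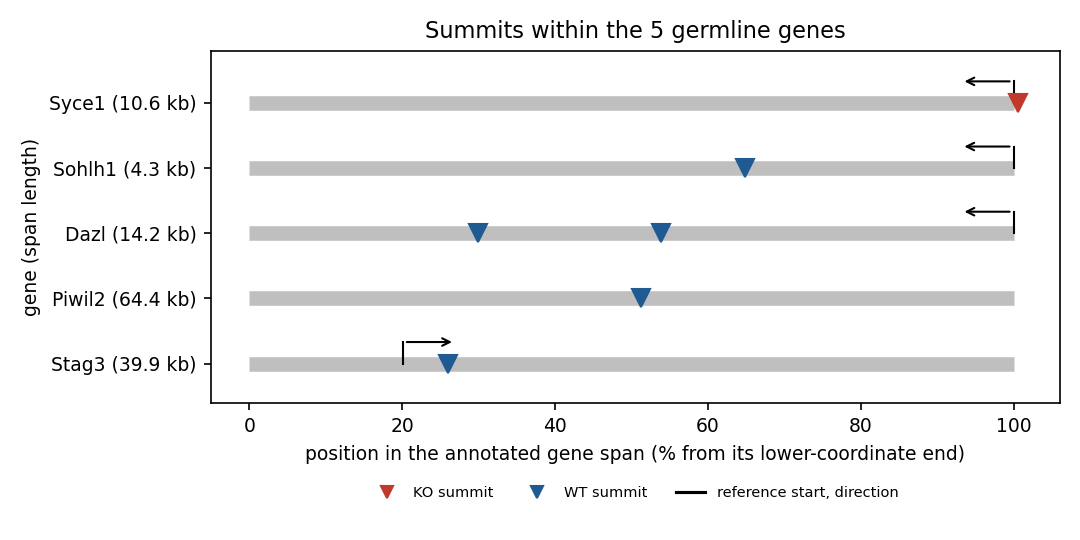
Position of each summit (triangles, KO red, WT blue) along the annotated span of the 5 genes, in % of the span from its lower-coordinate end; arrows mark the start and direction in the RefSeq promoter table, which was not matched for Piwil2. The KO summit at Syce1 sits 57 bp outside the gene at its start, and the 5 WT summits lie inside their genes.

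A summit at a gene start was not the usual case in either list. Over all listed peaks, 8 of 247 KO summits (3.24%) and 40 of 373 WT summits (10.7%) fell in a window from 250 bases before to 50 after a RefSeq start. The 32851 such windows of 300 bp are a small part of the genome, so these shares do not mean that summits avoided starts. A share for random placement was not computed. At the 5 genes the count was 1 of 1 KO summit and 0 of 4 WT summits with a matched start. With so few peaks these counts describe the genes and compare nothing.

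The input was low at all 6 summits. The local background was 0.359 tags at the Syce1 KO peak, which is 1.44 times the genome-wide KO value of 0.248. At the WT peaks it ran from 0.341 tags at Sohlh1, equal to the genome-wide WT value, to 0.494 at Stag3, 1.45 times that value. MACS takes the largest of several backgrounds, and each can be read as whole input tags in a window. The Syce1 value equalled 20 KO input tags in 10 kb (or 2 in 1 kb). In WT it equalled 14 and 15 input tags in 10 kb at the Dazl peaks, 18 at Piwil2 and 19 at Stag3. A single input tag in the fragment-long window around a summit would alone have given 0.598 tags in KO or 0.869 in WT. None of the 6 summits reached this, so 0 input tags lay in that window at any of them. Other listed peaks of 5 or 6 tags had a median background of 0.251 tags in KO and 0.341 in WT, also below this value. A window with 0 input tags is thus usual for peaks this low and no trait of these genes.

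**Figure D2:**
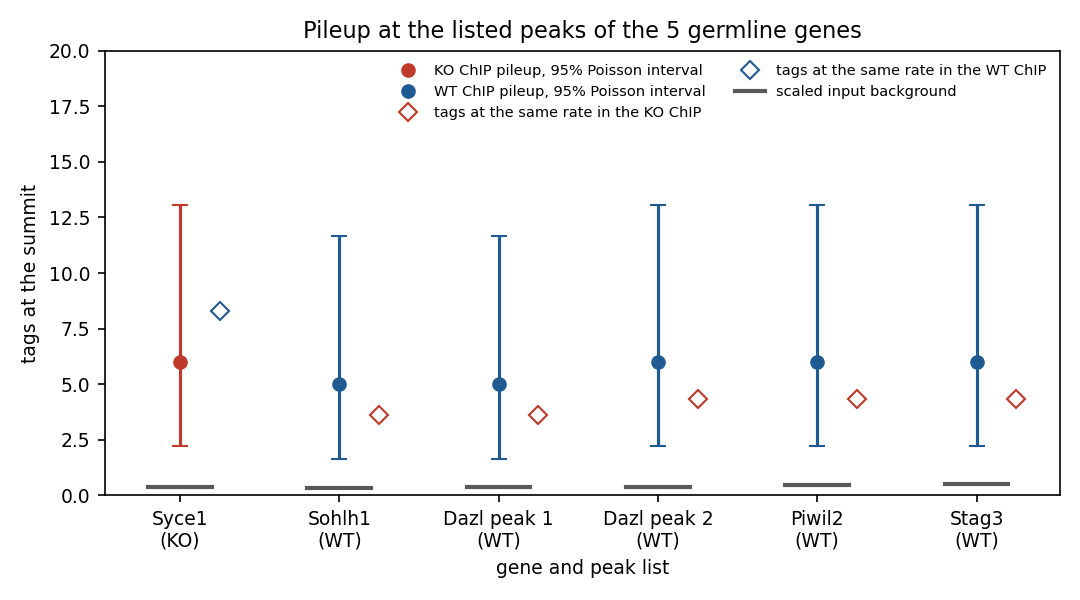
Tags at the summit of each of the 6 peaks (y axis; circles with 95% exact Poisson intervals, KO red, WT blue), the scaled input background (grey bars) and the tags that the other genotype's ChIP would hold at the same rate per filtered tag (open diamonds). The pileups are 5 or 6 with intervals that overlap each other, the backgrounds lie below 0.5, and the diamonds run from 3.63 to 8.27. The diamonds start from pileups of peaks chosen for being listed, and so may be too high.

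The counting intervals of all 6 pileups overlap, so the peaks cannot be put in order at this depth. Within the lists they ranked in the middle or lower part. By fold the Syce1 peak ranked 107 of 247 in KO. The WT peaks ranked 190 (Dazl, the peak nearer the start), 217 (Piwil2), 219 (Stag3), 231 (Sohlh1) and 272 (Dazl, the other peak) of 373. Other chromosomal peaks with a background under 10 times the genome-wide value had a median fold of 6.22 in KO and 5.22 in WT. All 6 peaks lay below the median of their list in this class. By pileup, 204 KO peaks were higher than Syce1 and 25 lower. In WT, 233 peaks were higher than 6 tags and 11 were lower than 5.

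Peaks of 5 or 6 tags were common in WT. The list held 124 others, with a median fold of 4.47 and q-values from 0.0028 to 0.282. The KO list held 40 others, with a median fold of 4.81. All 6 peaks at the germline genes had a q below 0.05, as did 34 of the 40 other KO peaks and 103 of the 124 other WT peaks of this pileup. Peak length was the fragment length (300 bp in KO, 299 bp in WT) at 4 of the 6 peaks, Stag3 and the Dazl peak nearer the start being longer at 444 and 421 bp. In the full lists 21.1% of KO and 27.3% of WT peaks had exactly this length. Among the other peaks of 5 or 6 tags it was also the median length, 300 bp in KO and 299 bp in WT.

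**Figure D3:**
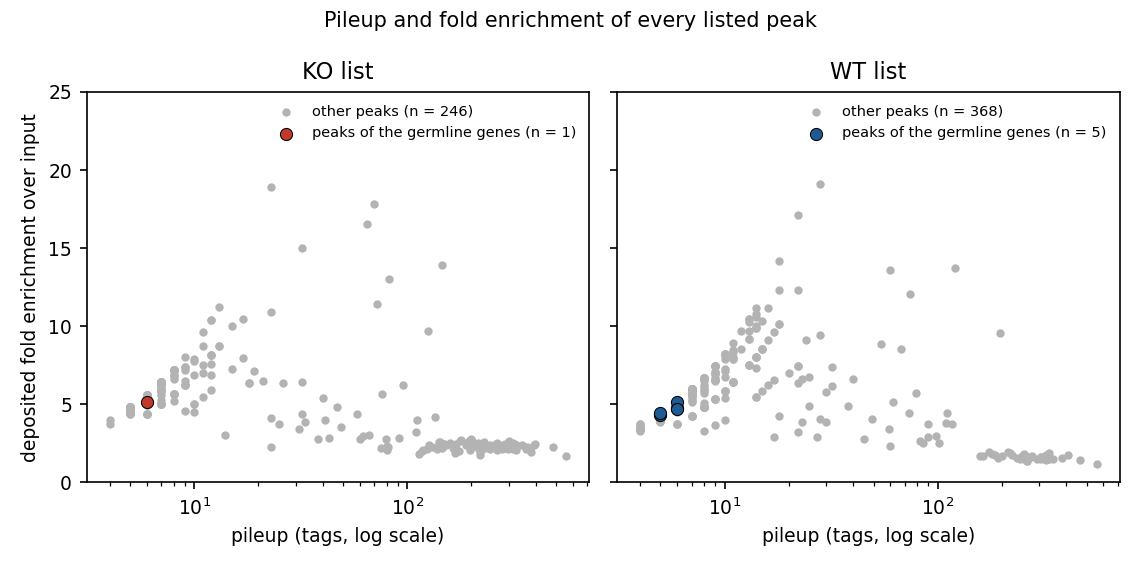
Pileup (x axis, tags, log scale) and deposited fold enrichment (y axis) of every peak in the KO list (left) and the WT list (right), with the peaks of the 5 germline genes in colour. The coloured points lie at 5 or 6 tags and folds of 4.32 to 5.15, near the low-pileup end of each list.

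No peak of the other genotype lay near any of the 6. The WT summit nearest to the Syce1 peak was 4.55 Mb away. The KO summit nearest to each WT peak was 4.55 Mb away for Sohlh1, 10.4 Mb for both Dazl peaks, 14.0 Mb for Piwil2 and 133 kb for Stag3. The last is a place where both lists had a peak, with 5 tags in KO (138149402 to 138149721) and 8 in WT (138149153 to 138149704), about 123 kb from Stag3. For each gene, only the nearest peak of each list beyond the 3000 bp limit was taken. Among those, the peaks near Stag3 were the closest, followed by a WT peak of 6 tags 646 kb from Piwil2. Within the limit, the sole summit outside its gene was that of Syce1, by 57 bp.

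The ChIP libraries differed in depth. The WT ChIP was 1.38 times as deep as the KO ChIP. At an equal rate per tag, the Syce1 KO peak of 6 tags corresponds to 8.27 WT tags (3.03 to 18.0). The WT peaks of 6 tags correspond to 4.35 KO tags (1.60 to 9.47) and those of 5 tags to 3.63 (1.18 to 8.47). These values start from summit pileups that were high enough to be listed and that chose the genes. They may therefore be too high, and the intervals do not cover that choice. The lowest listed pileup was 4 in both lists, held by 2 KO and 11 WT peaks, and the lowest with a q of at most 0.05 was 5 in both. With WT pileups and backgrounds scaled to the KO depth, Sohlh1, Dazl, Piwil2 and Stag3 all kept a Poisson p at least as low as that of the weakest KO peak. So did 340 of all 373 WT peaks, so this is no trait of these genes. The scaled pileups are fractional, which no library can hold, so the scaling cannot tell whether a KO peak would have been listed. For Sohlh1 and the Dazl peak farther from the start, the expected KO value of 3.63 lies below the lowest listed KO pileup of 4. For the WT peaks of 6 tags the expected 4.35 lies just above it, and the intervals reach below it. For Syce1 the expected WT value lies above the lowest listed WT pileup, and its interval reaches below it. The pileup in the library without a listed peak is not given in the lists, so no ratio between the genotypes was computed. Whether the genotypes differ at these genes was not tested.

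Some other protein-coding genes with peaks this low had a peak in both lists. Of the 26 whose highest KO pileup was 5 or 6, 13 (50%) also had a WT peak, and of the 97 whose highest WT pileup was 5 or 6, 8 (8.25%) also had a KO peak. Over all pileups the shares were 45 of 82 (54.9%) in KO and 45 of 233 (19.3%) in WT. Since the 5 genes were chosen for having a peak in 1 list or the other, these shares are background and not a test of them.

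Most of the genes that work with these 5 had no peak. Lists of germline genes, made with earlier results of these data known, held 104 genes in 8 groups. Of these, 2 (1.92%) had a KO peak and 4 (3.85%) a WT peak. Among the 21900 protein-coding genes the shares were 0.379% in KO and 1.08% in WT. Among the 13546 protein-coding genes as long as the 5 genes (4254 to 64422 bp) they were 0.34% in KO and 1.02% in WT. All 4 of the WT genes are among the 5 chosen for their peaks, so the excess over the background restates that choice.

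By role, Stag3 was the one of 4 meiotic cohesin genes with a peak, and Syce1 the one of 8 synaptonemal complex genes. Sohlh1 was the one of 18 germ cell transcription factors, and Dazl the one of 8 germ cell RNA-binding proteins. In the piRNA pathway 2 of 25 genes had a peak, Piwil2 in WT and Rnf17 in KO. No KO or WT peak was found at the 28 genes of meiotic recombination, the 5 of meiotic entry or the 8 of spermatogonial surface and signalling proteins. Nor was there one at the 32 markers of spermatids, Sertoli, Leydig and peritubular cells, macrophages and endothelium. At shares near 1% or below in the background, 0 peaks in a list of this size gives no information on Tet1 at its genes.

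Rnf17, a Tudor domain gene of the piRNA pathway, had a KO peak of 5 tags (1.62 to 11.7) with a fold of 4.81 and a q of 0.00721 (chromosome 14, 56402499 to 56402798). Its summit lay 27 bp outside the gene at the lower-coordinate end. Rnf17 is not one of the 5 genes, although this peak meets the same distance rule. Its input background was the genome-wide value.

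The RefSeq promoter table held 4 of the 5 genes, with 32851 windows of 300 bp in all and a median of 7 CpG per window (quartiles 3 and 20). The Syce1 window, which the KO peak covers for 147 bp, had 14 CpG, as did that of Sohlh1. Those of Dazl and Stag3 were richer, with 28 and 30 CpG, above 85.8% and 88.3% of the windows. Of the 4 windows, only that of Syce1 held a listed summit. The WT summits lay downstream of the start, by 1495 bp at Sohlh1 and by 2362 to 9973 bp at Dazl and Stag3. With 1 summit in a window, nothing on CpG content and peaks can be read from this.

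Motifs were searched on both strands of these windows. The E-box CACGTG, a palindrome bound by helix-loop-helix proteins, occurred 3 times at Sohlh1, once at Stag3, and 0 times at Dazl and Syce1. It was found in 7.15% of all windows, and 3 or more copies in 29 of them (0.0883%). The motif GGCGGGA, of the type bound by E2F proteins, occurred in none of the 4 windows and in 11.3% of all. A match in a window is a description of letters and not of binding.

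**Figure D4:**
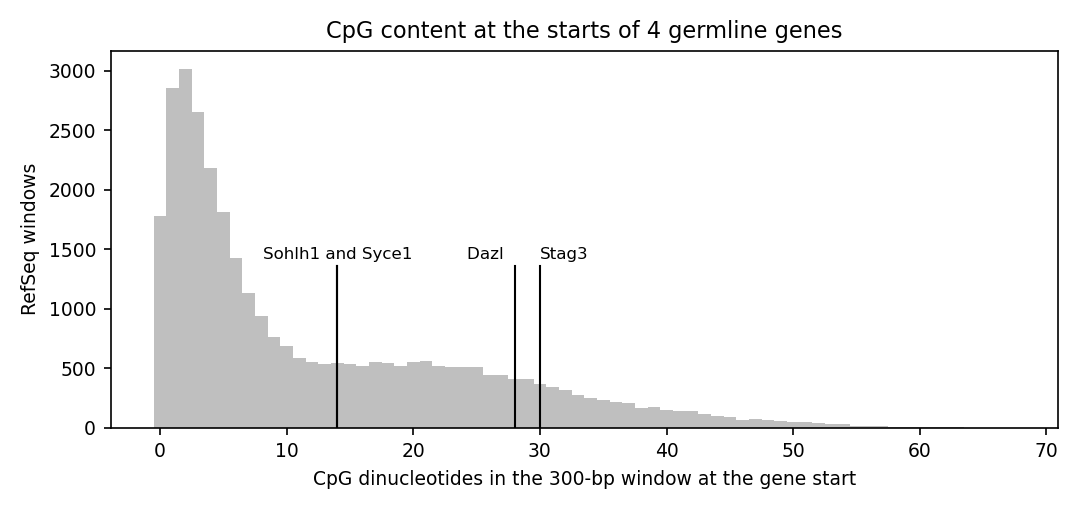
Number of RefSeq windows (y axis) by CpG dinucleotides in the 300 bp around the gene start (x axis), with black lines at Syce1, Sohlh1, Dazl and Stag3. Syce1 and Sohlh1 have 14 CpG, Dazl 28 and Stag3 30, all above the median window of 7.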

How the data were processed

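The files were 2 peak lists, 1 per genotype, made with MACS 2.1.1.20160309 from the ChIP and the input of that genotype, unpooled, per the file headers. The submitters' processing notes also name Trim Galore, Bowtie2, SAMtools, deepTools and build mm10. Per the file headers, the q cutoff was 0.5, the effective genome size was the human preset (2.7e9), 1 tag was kept per position and the input was scaled down to the ChIP depth. These choices give lenient lists with a low genome-wide background. The deposited pileup is a signal in ChIP tags, the deposited fold a ratio to the input with a pseudocount of 1, and the deposited −log10 p-value and q-value columns rest on a Poisson test of the pileup.

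Python 3.11.15, pandas 2.3.3 and scipy 1.17.1 were used. Backgrounds were recovered from pileup and fold, and gave the deposited −log10 p within 5% for 247 of 247 KO and 373 of 373 WT peaks. Backgrounds under 3 tags were whole input tags (within 0.01) or the genome-wide value at all 140 KO and 300 WT such peaks. Gene spans came from RefSeq GRCm38.p6, which holds no exons, so exon, intron and UTR positions were not analysed here. The assignment of peaks to genes was tested on simulated summits inside genes or beyond their higher-coordinate end. Summits below the lower-coordinate end were not simulated. The 5 genes, the gene lists and the naming rule (these genes, their neighbours, list genes with a peak, and Tet1) were chosen with earlier results of these data known. Alternatives were windows, q, fold, overlap, pseudocount, genome size and depth.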

Additional observations from a re-analysis of the deposited data

How the results depend on the processing

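The counts of germline genes depended on the strength of peak required and, in KO, on the rule for position. With the summit required inside the gene, the number of the 5 genes with a KO peak was 0 in place of 1 and that of the germline lists 0 in place of 2, since both KO summits lie just outside a gene. The WT numbers remained 4. With a q of at most 0.01, or a fold of at least 5, 1 WT gene was left, Dazl, among the 5 genes and in the germline lists. With a fold of at least 5, 1 KO gene of the germline lists was left, Syce1. Limits of 1000 and 10000 bp, any base of the peak in place of the summit, and a q of at most 0.05 left all 4 counts as they were. Scaling WT to the KO depth also left the WT counts as they were (for the lists this was chosen after seeing the data). That scaling used fractional pileups and kept 340 of all 373 WT peaks. No peak had a counterpart within 1000 or 10000 bp in the other list. With a pseudocount of 0 the folds were 16.7 at the Syce1 KO peak and 12.2 to 16.5 at the WT peaks, and with the mouse effective genome size 5.15 and 4.02 to 4.69. Only folds were recomputed with the mouse size, so all q-values given rest on the human preset. No paired analysis was possible because each group has 1 library and no test was made. Pileups of 5 or 6 tags limit every value here.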
